A study of Homo sapiens with 51 samples.

Results

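The dose series of chaetocin comprised 12 RNA-seq libraries of HMLE-TWIST1 cells, 3 each at 100, 150, 200 and 500 nM of the drug, out of 51 libraries in 17 groups in the study. They were chosen by their labels alone, as every library of those doses at day 2, with no vehicle library among them. HMLE is a line of human breast epithelium made immortal in culture, and its derivative HMLE-TWIST1 overexpresses the transcription factor TWIST1. The labels of the groups of 100, 150, 200 and 500 nM differ in dose alone. All 12 libraries therefore share the transgenic line and 48 h of drug, and a trend across them describes more drug against less drug, never drug against none. All 23098 genes listed for these libraries were fitted, of 24033 in the whole table. The sample records speak of 3 treated replicates without saying whether these were separate cultures, so each p measures the spread between these samples only. Counts are per gene, which leaves reads of the TWIST1 transgene and of the endogenous copy in a single value. In these bulk samples, fewer cells of a type and less RNA per cell cannot be told apart.

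Chaetocin is a fungal compound with a reactive disulfide, known as an inhibitor of SUV39H1, which methylates lysine 9 of histone H3 in silent chromatin. TWIST1 is a master regulator of the epithelial to mesenchymal transition, in which epithelial cells lose E-cadherin and gain a matrix-producing, motile state. NF-kB is a family of transcription factors held inactive in the cytoplasm by inhibitor proteins and released by stress and inflammatory signals, whose targets include cytokines, chemokines and their own inhibitors.

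Across the dose range the RNAs of many inflammatory mediators, immediate early genes and chaperones rose, while those of many matrix proteins, histones and DNA replication genes fell, with the counts given by list below. The slope of each gene is its change in log2 RPKM (reads scaled to gene length and library size) for every doubling of the dose, fitted with the replicate number as a block. From 100 to 500 nM is 2.32 doublings. With limma and a Benjamini-Hochberg adjusted p below 0.05, 3742 genes rose (16.2% of those fitted) and 3683 fell (15.9%), or 32.1% in both directions. The slope had the same sign in all 3 replicate numbers for 3609 of the risers and 3516 of the fallers. Rises were the steeper ones, with 1727 risers at a slope of at least 0.5 and 187 fallers at or below -0.5. Called rises made up 19.4% of genes with a mean level between -2 and 0 on the log2 CPM scale (reads scaled to library size alone) and 13.3% of those above 6, whereas called falls made up 1.38% and 33.6%. The libraries held 7897060 to 11455510 reads in listed genes.

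The libraries of replicate number 3 stood apart at the lower doses on the first principal component, and those of number 1 on the second. On the first principal component, which carried 41.1% of the variance, replicate number 3 had scores of -73.5, -50.3, -31.3 and 33.3 at 100, 150, 200 and 500 nM. Replicate number 1 had -16, 13.1, 28.6 and 43.1, and replicate number 2 had -24.6, 3.15, 21 and 53.4. Scores were higher at each higher dose within every number, and the 3 libraries of 500 nM lay closer together than those of 100 nM on this component. On the second component, with 28% of the variance, replicate number 1 had 60.4, 33.5, 33.9 and 32.1 in dose order. The other numbers had scores from -42.9 to 5.41 there. The slope differed between the replicate numbers for 681 genes (2.95%, limma), where 3951 had an unadjusted p below 0.05. Of the risers, 2108 had their steepest slope in replicate number 3, as did 2388 of the fallers.

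**Figure D1:**
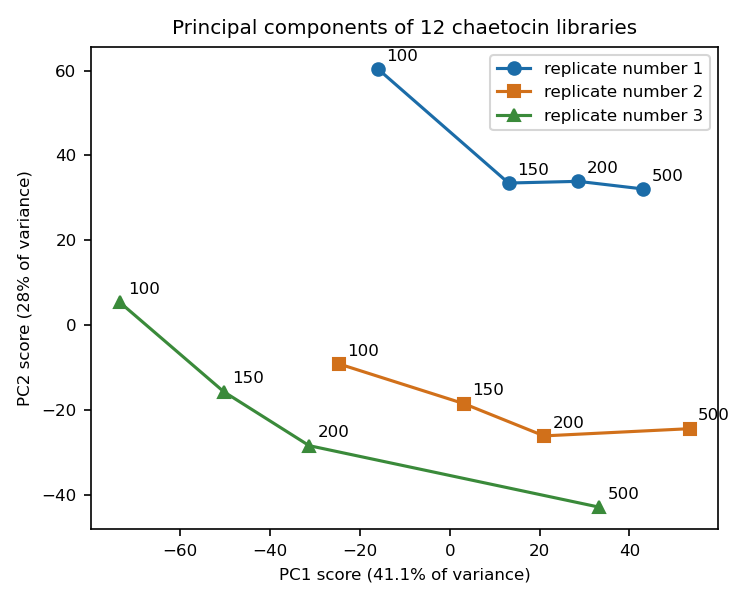
Scores of the 12 libraries on the first and second principal components of log2 RPKM (x axis PC1 with 41.1% of the variance, y axis PC2 with 28%), labelled with the chaetocin dose in nM and joined within each replicate number. Each number moves to the right with dose, and replicate number 3 starts furthest left, at -73.5.

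The median change of the called genes was spread over the range. These genes were called by their straight slope on log2 dose in the same libraries, so medians near the dose positions partly follow from that. Relative to 100 nM, the median change of the risers was 0.298, 0.516 and 1.12 log2 units at 150, 200 and 500 nM, or 26.6% and 46.1% of the way at the inner doses. On the log2 dose scale those doses lie at 25.2% and 43.1% of the range. The fallers had medians of -0.163, -0.258 and -0.493, or 33.1% and 52.3% of the way at the inner doses. The replicate numbers took different courses, with medians of the risers of 0.326, 0.528 and 0.813 in number 1, 0.249, 0.45 and 0.919 in number 2, and 0.187, 0.463 and 1.2 in number 3. The medians of the fallers were -0.209, -0.271 and -0.36 in number 1 and -0.149, -0.245 and -0.634 in number 3. More of the change thus came before 200 nM in number 1 and after it in number 3. A test for departure from a straight line on log2 dose, over the 3 numbers together, called 0 genes with limma, where 704 had an unadjusted p below 0.05.

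Taking the ends alone, 500 nM against 100 nM gave 3528 genes higher (15.3%) and 3420 lower (14.8%), or 30.1% in both directions. All 3 libraries of 500 nM lay beyond all 3 of 100 nM for 15.6% of genes upward and 14% downward. Neighbouring doses differed in few genes. Both 150 against 100 nM and 200 against 150 nM gave 0 calls (0%) with limma, with 2536 and 767 genes at an unadjusted p below 0.05. The step from 200 to 500 nM, the widest on the log2 scale, gave 41 higher (0.178%) and 11 lower (0.0476%), or 0.225% in both directions. Among these were ARC, PTGS2, FOSB, MYO5C, ADTRP and IDI1 upward and ZNF618 downward, all described below by their levels or slopes. That step is the result that depends most on the processing, with 0 calls in either direction when the replicate block or the robust intensity trend was left out.

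**Figure D2:**
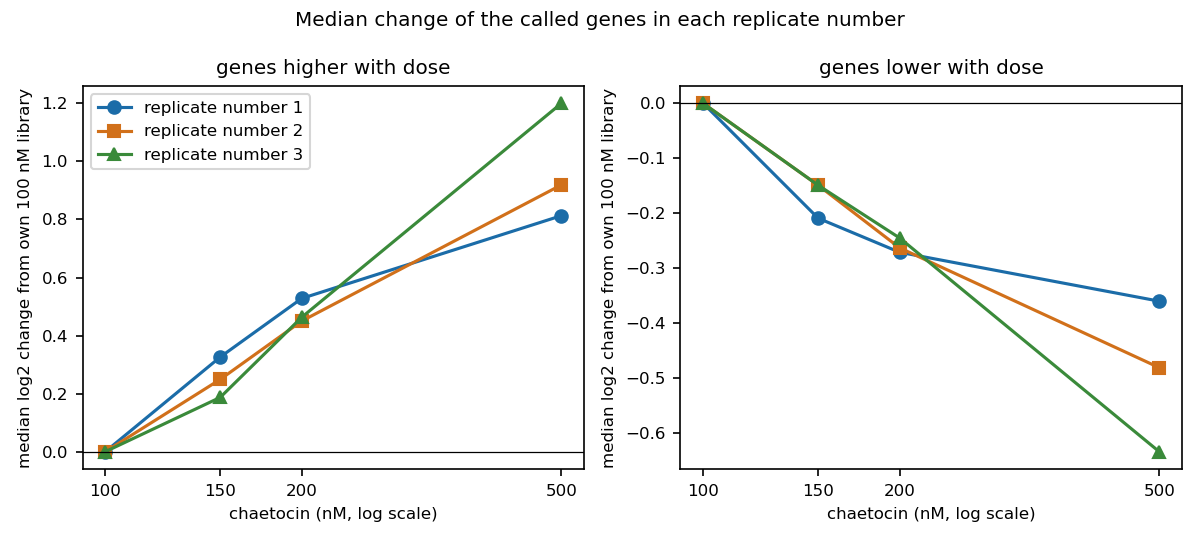
Median log2 change from the 100 nM library of the same replicate number (y axis) against chaetocin dose in nM on a log scale (x axis), for the 3742 genes called higher (left) and the 3683 called lower (right). At 150 nM replicate number 1 has the largest median change in both panels, and at 500 nM replicate number 3 has it, with 1.2 and -0.634.

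The cytokine and chemokine genes regulated by NF-kB had the highest share of risers of the 31 lists. Of 21 measured, 17 rose and 0 fell, with a median slope of 0.798 against 0.000992 over all genes fitted. Between 15 and 17 members rose with any one replicate number left out, and 15 without the 500 nM library of replicate number 3. The share that rose, 81%, stands against the 16.2% of all genes.

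IL8, the neutrophil chemokine also named CXCL8, had 16.8, 132 and 14.5 CPM in replicate numbers 1, 2 and 3 with 100 nM, 62.7, 405 and 54.8 with 150 nM, 104, 688 and 99.3 with 200 nM, and 142, 975 and 700 with 500 nM. Levels are in this replicate order throughout, and CPM are reads scaled to library size with the authors' factors. Every number was higher at each higher dose, and replicate number 2 was several times above the others up to 200 nM. The slope was 1.55 (SE 0.27, adjusted p = 0.0031, limma), the largest among called genes with a mean log2 CPM of at least 2. Without the 100 nM libraries it was 1.12 and no longer passed (adjusted p = 0.0788). The vehicle (DMSO) libraries of the same day, which the authors scaled separately, held IL8 at 0.788, 1.37 and 0.682 CPM.

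IL1B, the inflammatory cytokine interleukin-1 beta, had 0.52, 3.13 and 0.483 CPM with 100 nM, 1.42, 7.85 and 2.47 with 150 nM, 2.14, 12.8 and 2.93 with 200 nM, and 2.87, 34.9 and 24.3 with 500 nM. The 500 nM library of replicate number 1 stayed below the 100 nM library of replicate number 2, so the groups overlapped, although each number was higher at every step. Its slope was 1.45 (SE 0.19, adjusted p = 0.00021), with 0.81, 1.41 and 2.12 in the 3 numbers, which differed between numbers (adjusted p = 0.024, limma). CSF2, the growth factor GM-CSF, had 1.3, 3.74 and 0.386 CPM at 100 nM and 0 reads in every DMSO library of day 2. At 500 nM it had 4.1, 21.1 and 25.1 CPM, for a slope of 1.29 (SE 0.27, adjusted p = 0.0055).

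PTGS2, the inducible cyclooxygenase that makes prostaglandins, was even across the numbers. It had 5.2, 7.27 and 7.34 CPM with 100 nM, 7.29, 11.2 and 8.77 with 150 nM, 10.1, 17 and 12 with 200 nM, and 17, 26.8 and 22.3 with 500 nM. The 500 nM libraries all lay above the 100 nM ones, and slopes in the 3 numbers were 0.71, 0.78 and 0.70 (overall 0.73, SE 0.06, adjusted p = 4.5e-07). In DMSO it stood at 5.91, 3.75 and 3.64 CPM, with separate scaling. IL11, a cytokine of the IL6 family, rose with a slope of 0.88 (SE 0.11, adjusted p = 3.7e-05). CCL20, a chemokine for lymphocytes and dendritic cells, rose by 0.90 per doubling (SE 0.14, adjusted p = 0.000195, and 0.0842 without the 500 nM libraries) from a very low level, with at most 2.05 CPM in any library. The 4 members that did not pass, named here after their values were seen, were VCAM1, CCL5, TNF and CCL2.

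The promoters of these genes show which of them carry the letters that NF-kB and the AP-1 family recognise. RefSeq promoters (GRCh38.p14, the 250 bases before the gene's start) were found for 17 of the 21 genes. The NF-kB motif GGNNTTTCC, searched on both strands, was present in 10 of these 17 (58.8%), and in 5.48% of 27305 promoters of the whole table. The AP-1 motif TGANTCA, which reads alike on both strands, was in 3 of the 17 and in 6.6% of all promoters. A match describes the letters only. The list was written from genes known as NF-kB targets, so a share above that of all promoters partly follows from its making. Members were searched whether they rose or not, and VCAM1, which did not pass, holds the NF-kB motif. The 3 sequences below were chosen because IL8 holds both motifs, CCL20 the NF-kB motif alone and IL11 the AP-1 motif alone. Each is written along the gene's strand, with the motif in capitals.
IL8 (chr4:73740319-73740568, plus strand): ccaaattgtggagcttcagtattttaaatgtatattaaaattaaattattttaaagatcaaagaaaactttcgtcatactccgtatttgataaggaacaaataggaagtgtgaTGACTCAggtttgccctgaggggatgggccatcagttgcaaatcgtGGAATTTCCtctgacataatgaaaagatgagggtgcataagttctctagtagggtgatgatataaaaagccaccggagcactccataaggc
CCL20 (chr2:227813592-227813841, plus strand): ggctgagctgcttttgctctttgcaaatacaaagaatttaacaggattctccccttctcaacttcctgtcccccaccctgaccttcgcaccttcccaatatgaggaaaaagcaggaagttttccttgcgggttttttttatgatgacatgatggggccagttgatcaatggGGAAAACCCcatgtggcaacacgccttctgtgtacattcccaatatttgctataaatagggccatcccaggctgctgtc
IL11 (chr19:55370464-55370713, minus strand): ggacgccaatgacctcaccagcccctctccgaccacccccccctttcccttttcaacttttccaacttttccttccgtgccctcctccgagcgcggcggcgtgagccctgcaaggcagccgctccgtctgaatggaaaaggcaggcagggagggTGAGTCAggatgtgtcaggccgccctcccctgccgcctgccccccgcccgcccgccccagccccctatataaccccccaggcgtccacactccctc
The IL8 promoter holds the AP-1 letters 137 bases and the NF-kB letters 91 bases before the start. In CCL20 the NF-kB letters lie on the other strand, 79 bases before the start, and in IL11 the AP-1 letters lie 96 bases before it. PTGS2, IL1B and CSF2, which rose as well, held neither motif in this window.

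The subunits and inhibitors of NF-kB rose less steeply. Of 23 measured, 14 rose and 1 fell, with a median slope of 0.187, and 8 rose without replicate number 3. The shares were 60.9% and 4.35%, against 16.2% and 15.9% of all genes. NFKBIZ, a nuclear inhibitor protein that also co-activates part of the NF-kB targets, had 73.2, 135 and 126 CPM at 500 nM against 37.8, 63.6 and 45.6 at 100 nM (slope 0.50, SE 0.06, adjusted p = 0.00011). TRAF1, an adaptor of tumour necrosis factor receptors, rose by 0.65 per doubling (SE 0.10). NFKB1, the p50 subunit, rose by 0.23 (SE 0.04). IKBKB, the kinase that marks the inhibitors for destruction, was the member that fell (-0.17, SE 0.03, adjusted p = 0.00045, and 0.192 without the 500 nM libraries).

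Of 31 immediate early genes, a class induced within minutes of a stimulus, 16 rose and 3 fell (median slope 0.262). That is 51.6% and 9.68%, against 16.2% and 15.9% of all genes. Without replicate number 2, 13 rose, and 16 without number 3. ARC, a neuronal activity gene of this class, had 4.81, 3.53 and 1.64 CPM with 100 nM, 7.29, 5.69 and 3.04 with 150 nM, 9.93, 6.35 and 3.18 with 200 nM, and 46.2, 42.2 and 9.63 with 500 nM. Most of its change came after 200 nM, where the last step alone was 2.14 log2 units (SE 0.214, adjusted p = 0.000921), the smallest adjusted p of that step. Replicate number 3 was lowest at every dose.

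Among AP-1 subunits FOSB rose by 0.91 per doubling (SE 0.11, adjusted p = 2.1e-05, and 0.0951 without the 500 nM libraries), and JUNB by 0.31 (SE 0.04, adjusted p = 1.3e-05). FOSL2 fell, with 207, 230 and 260 CPM at 500 nM against 294, 375 and 497 at 100 nM (-0.30, SE 0.04, adjusted p = 2.6e-05). ATF3, a stress-induced repressor, and MAFF, a small MAF protein, rose by 0.66 (SE 0.09) and 0.59 (SE 0.08).

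Chaperones of the heat shock response also rose, in 14 of 25 cases (56%, against 16.2% of all genes) with 0 falls (median slope 0.151). Without replicate number 3, 10 rose. HSPH1, a co-chaperone that exchanges nucleotide on HSP70, had 260, 257 and 129 CPM with 100 nM, 356, 318 and 192 with 150 nM, 431, 380 and 232 with 200 nM, and 493, 511 and 394 with 500 nM. All libraries of 500 nM but that of replicate number 3 exceeded every library of the lower doses, and all 3 exceeded the 100 nM libraries (slope 0.49, SE 0.05, adjusted p = 2.8e-05). BAG3, which guides chaperone clients to autophagy, had 152, 127 and 113 CPM at 500 nM against 110, 82.3 and 83.9 at 100 nM, and 85.1, 79.1 and 89 CPM in the separately scaled DMSO libraries. Its slope was 0.23 (SE 0.03, adjusted p = 3.6e-05, and 0.0584 without the 500 nM libraries). The small chaperone HSPB8 rose by 0.83 (SE 0.12), a call lost without the 500 nM libraries (adjusted p = 0.0591).

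Targets of NRF2, the regulator of the antioxidant response, gave 6 higher and 6 lower of 32 (18.8% each, median slope 0.0102). Those shares are near the 16.2% and 15.9% of all genes. HMOX1, the heme-degrading oxygenase, had 227, 165 and 87.7 CPM with 100 nM, 281, 207 and 136 with 150 nM, 347, 241 and 170 with 200 nM, and 407, 383 and 315 with 500 nM. Each number was higher at each step, and the numbers kept their order, with number 1 highest and number 3 lowest at every dose. The slope was 0.55 (SE 0.06, adjusted p = 4.6e-05) and differed between numbers, at 0.35, 0.52 and 0.77 (adjusted p = 0.0072). ABCC2, an export pump for conjugated compounds, rose by 0.76 (SE 0.08, adjusted p = 1.1e-05). TKT, transketolase of the pentose phosphate pathway, fell by 0.20 (SE 0.03).

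The list of ATF4 and unfolded protein genes held 7 risers and 1 faller of 30 (median slope 0.0443), and 18 risers without replicate number 3. The 23.3% that rose and 3.33% that fell stand against 16.2% and 15.9% of all genes. PPP1R15A, the phosphatase subunit GADD34 that restores translation after stress, had 113, 72.2 and 64.5 CPM with 100 nM, 196, 126 and 63.7 with 150 nM, 294, 169 and 68 with 200 nM, and 511, 434 and 252 with 500 nM. Replicate number 3 was nearly level up to 200 nM and lay above every 100 nM library at 500 nM (slope 0.97, SE 0.09, adjusted p = 6.1e-05, and 0.0836 without the 500 nM libraries). ERN1, the stress sensor IRE1 of the endoplasmic reticulum, rose by 0.43 (SE 0.05, adjusted p = 1.5e-05).

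Of 26 targets of p53, 11 rose and 2 fell (median slope 0.13), and 6 rose without replicate number 3. Risers made up 42.3% and fallers 7.69%, against 16.2% and 15.9% of all genes. AEN, an apoptosis-enhancing nuclease, and PLK3, a stress kinase, rose by 0.27 (SE 0.05) and 0.49 (SE 0.10). CCNG1, cyclin G1, fell by 0.22 (SE 0.04), a call lost without replicate number 2 (adjusted p = 0.0517). Regulators of apoptosis held 6 risers and 2 fallers of 27 (22.2% and 7.41%, against 16.2% and 15.9% of all genes). The risers included the death receptor TNFRSF10A (0.40, SE 0.08), and the fallers TNFSF10, its ligand TRAIL (-0.64, SE 0.14). The TNFSF10 groups overlapped, and its call was lost without replicate number 2 (adjusted p = 0.0765).

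**Figure D3:**
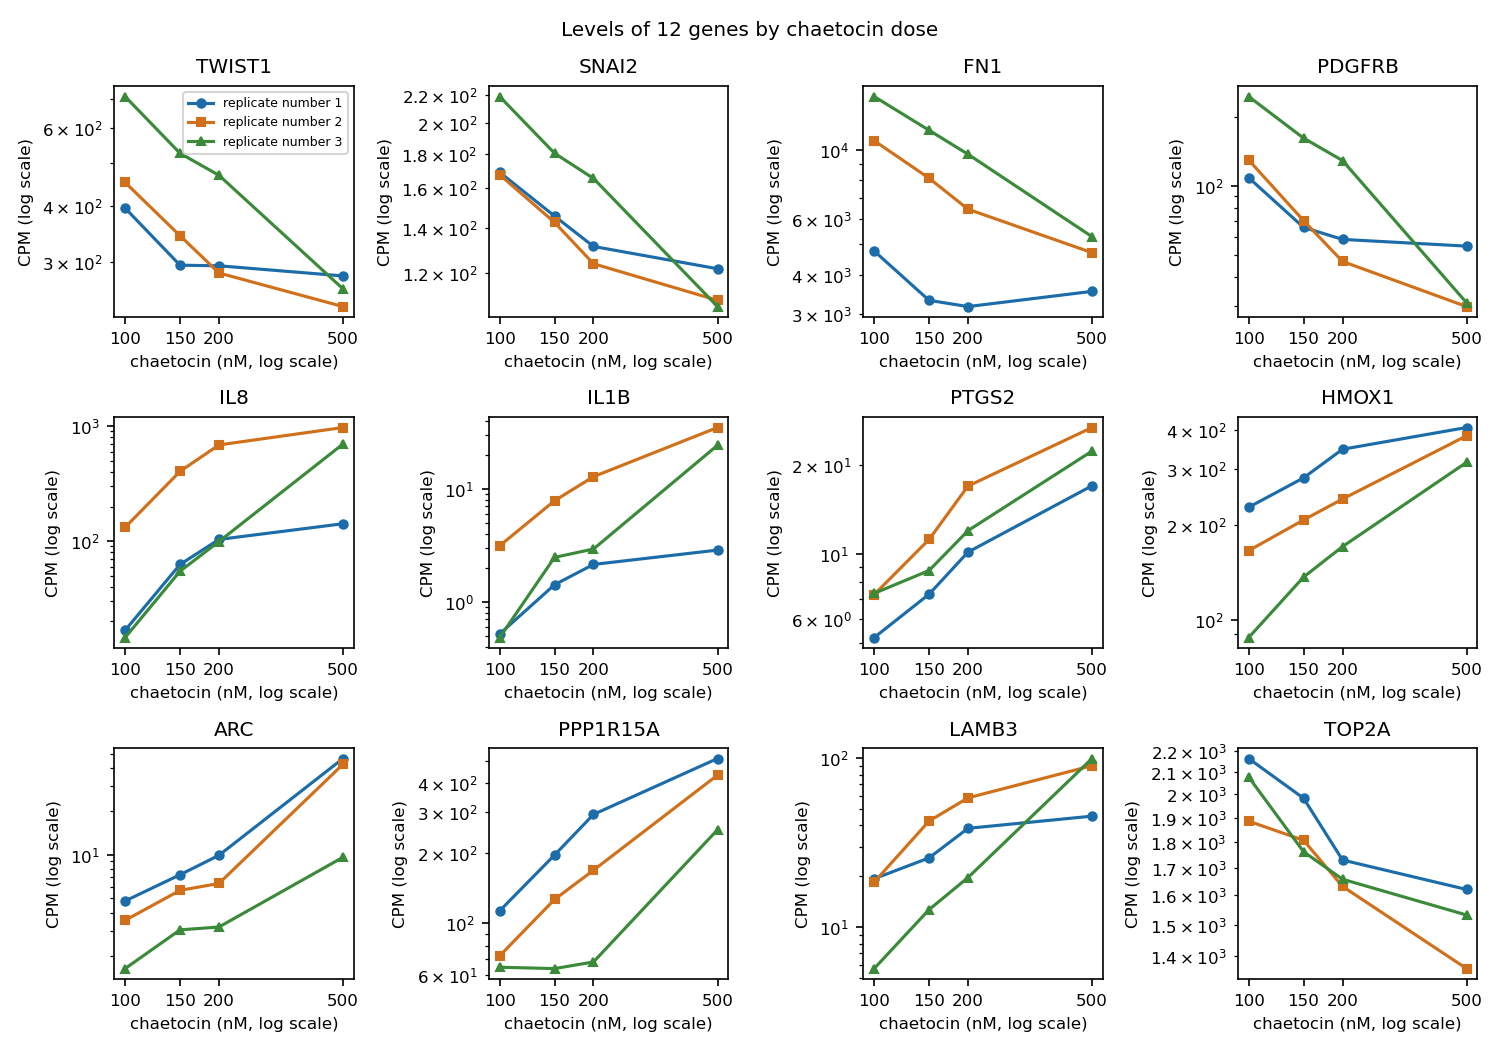
CPM on a log scale (y axes, each with its own range) against chaetocin dose in nM on a log scale (x axes) for 12 genes, with one line per replicate number. IL8, IL1B, PTGS2, HMOX1 and LAMB3 climb at every step in every number, TWIST1 and PDGFRB end below every 100 nM library, and FN1 is lowest in replicate number 1 at all doses.

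The mesenchymal and matrix genes moved the other way. Of 40 measured, 25 fell and 2 rose (62.5% against 15.9% of all genes), with a median slope of -0.227. Falls were more common among abundant genes, at 28.3% for a mean log2 CPM of 4 to 6 and 33.6% above 6. Without replicate numbers 1, 2 and 3 the falls numbered 30, 16 and 13, so their count rests partly on numbers 2 and 3. PDGFRB, a receptor for platelet-derived growth factor, had 108, 129 and 244 CPM with 100 nM, 65.9, 70.5 and 161 with 150 nM, 58.4, 46.9 and 129 with 200 nM, and 54.6, 29.8 and 31 with 500 nM. All 500 nM libraries were below all 100 nM ones, and replicate number 3 was highest up to 200 nM (slope -0.84, SE 0.15, adjusted p = 0.0036, and 0.0992 without the 100 nM libraries).

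FN1, which encodes fibronectin of the matrix, had 4759, 10700 and 14800 CPM with 100 nM, 3312, 8123 and 11550 with 150 nM, 3164, 6469 and 9685 with 200 nM, and 3538, 4700 and 5286 with 500 nM. Replicate number 1 was already low at 100 nM and did not fall further after 200 nM, so the end groups overlapped. Its slope was -0.42 (SE 0.09, adjusted p = 0.0062), and the call was lost without replicate number 2 (adjusted p = 0.0632) or 3 (0.118), or without the 100 nM libraries (0.162). FBN1, the microfibril protein fibrillin-1, had 76.6, 106 and 124 CPM at 500 nM against 129, 195 and 323 at 100 nM (slope -0.42, SE 0.04, adjusted p = 6.5e-06). LOXL1, an enzyme that cross-links elastin, fell by 0.55 (SE 0.07, adjusted p = 4.2e-05). TNC, the matrix protein tenascin-C, was one of the exceptions and rose by 0.18 (SE 0.03, adjusted p = 0.00044, and 0.0886 without the 500 nM libraries), with overlapping groups.

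VIM, the intermediate filament vimentin of mesenchymal cells, had 2280, 2252 and 2699 CPM at 500 nM against 3025, 2812 and 2746 at 100 nM. Its fall was small (-0.10, SE 0.03, adjusted p = 0.0092) and lost without the 500 nM library of replicate number 2 (adjusted p = 0.0556). CDH2, the adhesion protein N-cadherin, had 133, 154 and 175 CPM at 500 nM against 132, 134 and 142 at 100 nM, and did not pass (0.07, SE 0.03, adjusted p = 0.068). It passed without the 500 nM library of replicate number 1 (0.10, adjusted p = 0.0163). The records call the cells mammary epithelial. The epithelial markers CDH1 and EPCAM did not exceed 3.34 and 1.57 CPM in any of the 12 libraries. All 41 measured members of the epithelial list together summed to 221 to 475 CPM at 100 nM and 202 to 486 CPM at 500 nM.

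Transcription factors of the transition held 8 fallers and 1 riser of 17 (median slope -0.0675), and 4 and 0 without replicate number 2. The share that fell, 47.1%, stands against 15.9% of all genes. Among genes with a mean log2 CPM of 4 to 6 it was 28.3%, and above 6 it was 33.6%. TWIST1 itself had 396, 453 and 708 CPM with 100 nM, 295, 343 and 527 with 150 nM, 294, 283 and 470 with 200 nM, and 279, 238 and 261 with 500 nM. All 3 libraries of 500 nM lay below every library of the lower doses, and every number was lower at each step. TWIST1 averaged 259 ± 20.5 CPM at 500 nM and 519 ± 166 CPM at 100 nM (SD, n = 3 each). Its slope of -0.39 (SE 0.07, adjusted p = 0.0013) differed between numbers, at -0.18, -0.38 and -0.61 (adjusted p = 0.0474). Without the 100 nM libraries it was -0.31 (adjusted p = 0.0582).

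SNAI2, the epithelial repressor SLUG, had 122, 109 and 107 CPM at 500 nM against 169, 168 and 219 at 100 nM (slope -0.30, SE 0.04, adjusted p = 3.6e-05). Its 500 nM libraries were the lowest of each number and did not overlap those of 100 nM. TCF4, a partner of TWIST1 in E-box binding, fell by 0.29 (SE 0.04, adjusted p = 3.3e-05), with slopes of -0.32, -0.28 and -0.26 in the 3 numbers. ZEB1, another epithelial repressor, fell by 0.26 (SE 0.07, adjusted p = 0.014). That call was lost without the 500 nM library of replicate number 3 (adjusted p = 0.0657), replicate number 2 (0.0506) or the 100 nM libraries (0.16).

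Epithelial genes did not move as a block, with 7 risers and 2 fallers of 41 (17.1% and 4.88%), a median slope of 0.0144, and 2 risers without replicate number 3. Of all genes, 16.2% rose and 15.9% fell. CDH1, for E-cadherin, had 1.43, 0.707 and 0.483 CPM with 100 nM, 1.42, 0.883 and 0.225 with 150 nM, 2.53, 1.86 and 0.489 with 200 nM, and 3.18, 3.34 and 1.57 with 500 nM. These rest on 77 reads at 500 nM and 23 at 100 nM in all, and the end groups did not overlap (slope 0.69, SE 0.14, adjusted p = 0.001, and 0.264 without the 500 nM libraries). EPCAM, an epithelial adhesion molecule, rose on 36 reads at 500 nM and 10 at 100 nM (0.54, SE 0.14, adjusted p = 0.006), a call lost without the 500 nM library of replicate number 3 (adjusted p = 0.0556). PPL, the cornified envelope protein periplakin, fell by 0.76 (SE 0.12, adjusted p = 0.00076), to 12.7, 7.11 and 9.21 CPM at 500 nM, against 22.4, 26.1 and 63.1 at 100 nM.

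Basal mammary genes held 5 risers and 3 fallers of 18 (27.8% and 16.7%, against 16.2% and 15.9% of all genes). LAMB3, the beta chain of laminin-332, had 19.4, 18.5 and 5.7 CPM with 100 nM, 25.7, 42.5 and 12.7 with 150 nM, 38.5, 58.3 and 19.7 with 200 nM, and 45.4, 90.3 and 99.6 with 500 nM. Each number climbed at every step, from unequal starting levels (slope 1.05, SE 0.20, adjusted p = 0.0039, and 0.0723 without the 100 nM libraries). Keratin genes of the basal list were near the limit of detection, with KRT15 at or below 2.2 CPM (rising) and KRT14 at or below 1.8 CPM (falling, adjusted p = 0.00401, and 0.0621 without replicate number 2). Among luminal genes 4 of 11 rose (36.4%) and 1 fell (9.09%), against the same shares of all genes. ESR1, the estrogen receptor, had 7.69, 11.7 and 8.17 CPM at 500 nM against 1.3, 2.83 and 0.966 at 100 nM (slope 0.96, SE 0.11, adjusted p = 1.9e-05).

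The H3K9 methyltransferase genes SUV39H1 and SUV39H2 did not pass. SUV39H1 had 10.5, 12.1 and 12.6 CPM at 500 nM against 12.5, 11.7 and 15.7 at 100 nM (slope -0.08, SE 0.06, adjusted p = 0.337). SUV39H2 had 67.3, 52.5 and 49.7 CPM at 500 nM against 63.5, 54.5 and 53.4 at 100 nM (-0.01, SE 0.03, adjusted p = 0.76). In the list of H3K9 methylation and heterochromatin, 3 of 29 rose and 8 fell (median slope -0.0355). The share that fell, 27.6%, stands against 15.9% of all genes. It was near the 28.3% of genes with a mean log2 CPM of 4 to 6. CBX5, the heterochromatin protein HP1 alpha that binds the methylated lysine, had 502, 424 and 425 CPM at 500 nM against 673, 670 and 784 at 100 nM, with no overlap (slope -0.27, SE 0.03, adjusted p = 1.7e-05). HELLS, a chromatin remodeller needed for DNA methylation, and EHMT2, the H3K9 methyltransferase G9a, fell by 0.25 (SE 0.04) and 0.22 (SE 0.04). KDM7A, a histone demethylase, rose by 0.35 (SE 0.04, adjusted p = 2.4e-05), evenly in the 3 numbers at 0.36, 0.33 and 0.36.

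Many genes of the dividing cell fell in small steps. Of 59 replication-dependent histone genes, which are transcribed in S phase, 33 fell and 0 rose (median slope -0.205). The share that fell was 55.9%, against 15.9% of all genes and 33.6% of those with a mean log2 CPM above 6. Without replicate number 2 the falls numbered 14, and 12 without the 500 nM library of number 3. HIST1H2BH had 55.5, 33.2 and 28.5 CPM at 500 nM against 88.4, 56.8 and 63.7 at 100 nM (slope -0.34, SE 0.06, adjusted p = 0.00056). Histone genes are near-identical copies of each other, and reads shared between copies make single members uncertain. Of 40 DNA replication genes 19 fell (47.5%) and 2 rose (median -0.102), with 6 falls without number 3. Their share of falls stands against 15.9% of all genes, 28.3% at a mean log2 CPM of 4 to 6 and 33.6% above 6. LIG1, the ligase that joins lagging strand fragments, fell by 0.25 (SE 0.04), and TYMS, thymidylate synthase, by 0.15 (SE 0.03), the TYMS call being lost without the 100 nM libraries (adjusted p = 0.0507).

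Of 34 mitosis genes 13 fell and 0 rose (median -0.057), and 21 fell without number 3. The share that fell, 38.2%, stands against 15.9% of all genes. It was near the 33.6% of genes with a mean log2 CPM above 6. TOP2A, the topoisomerase that untangles chromosomes, had 2165, 1885 and 2078 CPM with 100 nM, 1983, 1807 and 1762 with 150 nM, 1730, 1632 and 1658 with 200 nM, and 1621, 1361 and 1532 with 500 nM. Every number was lower at every step, with slopes of -0.18, -0.21 and -0.17 (overall -0.19, SE 0.02, adjusted p = 4.5e-05). In the separately scaled DMSO libraries TOP2A had 1122, 937 and 1213 CPM, lower than in any library of the dose series. CCNA2, cyclin A2, fell by 0.26 (SE 0.04, adjusted p = 0.0002, and 0.166 without the 500 nM libraries).

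**Figure D4:**
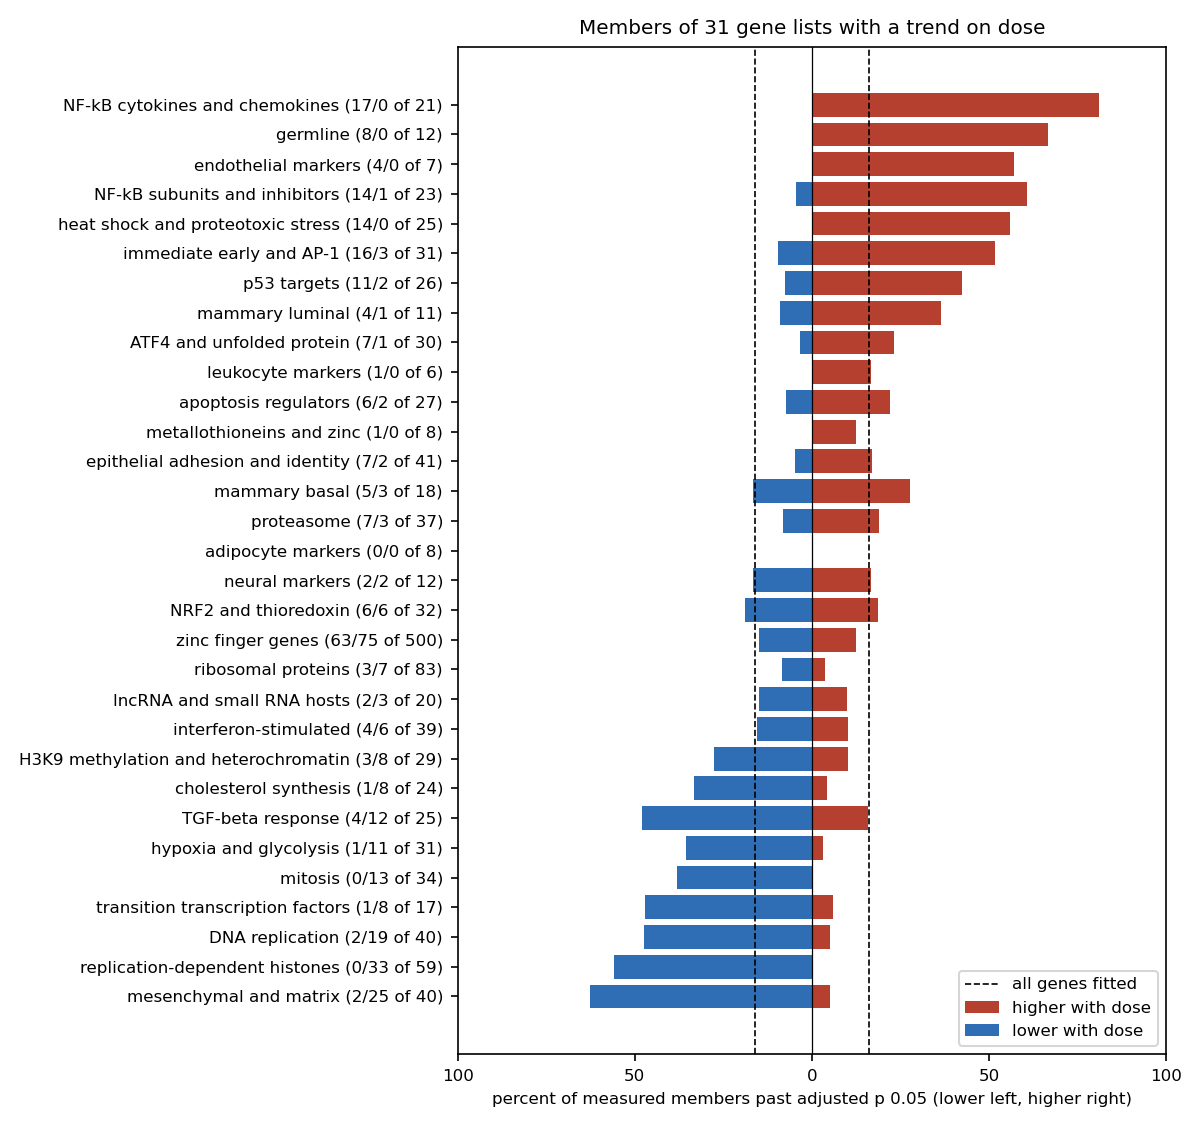
Share of the measured members of 31 gene lists (rows, with counts higher/lower of those measured) past an adjusted p of 0.05 in the trend, in percent on the x axis, lower to the left and higher to the right. Dashed lines mark all genes fitted, 15.9% lower and 16.2% higher. NF-kB cytokines reach 81% higher and mesenchymal genes 62.5% lower.

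In several metabolic and signalling lists more members fell than rose, as was so for abundant genes in general. TGF-beta response genes gave 12 fallers and 4 risers of 25 (median -0.101), hypoxia and glycolysis genes 11 and 1 of 31 (-0.0916), and cholesterol synthesis genes 8 and 1 of 24 (-0.0657). The shares that fell were 48%, 35.5% and 33.3%, against 15.9% of all genes, 28.3% of genes with a mean log2 CPM of 4 to 6 and 33.6% of those above 6. The hypoxia and cholesterol shares are thus near that of the most abundant genes. Without replicate number 2 the falls were 6, 6 and 5. SMAD4, the shared mediator of TGF-beta and BMP signals, fell by 0.19 (SE 0.04, adjusted p = 0.00082). LDHA, lactate dehydrogenase, fell by 0.17 (SE 0.03). The exception in the cholesterol list was IDI1, an isomerase of the isoprenoid pathway, with 363, 206 and 149 CPM at 500 nM against 208, 115 and 63.6 at 100 nM. IDI1 rose in every number from unlike levels, so the end groups overlapped (slope 0.41, SE 0.03, adjusted p = 1.4e-06).

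In other lists the shares called were near or below those of all genes, 16.2% higher and 15.9% lower. Ribosomal proteins gave 3 higher and 7 lower of 83 (3.61% and 8.43%). Their fallers numbered 1 to 41 over the settings run, the most without the 500 nM libraries. The proteasome gave 7 and 3 of 37 (18.9% and 8.11%), and interferon-stimulated genes 4 and 6 of 39 (10.3% and 15.4%). Zinc finger genes gave 63 and 75 of 500 (12.6% and 15%). Long noncoding hosts gave 2 and 3 of 20 (10% and 15%), and metallothioneins 1 and 0 of 8 (12.5% and 0%). Within the proteasome, the ATPase-associated subunit PSMD2 rose by 0.27 (SE 0.04) and the catalytic subunit PSMB6 fell by 0.42 (SE 0.06, adjusted p = 9e-05). The interferon-induced GTPase MX1 rose by 0.41 (SE 0.08), and the antiviral membrane protein IFITM3 fell by 0.32 (SE 0.06), a call lost without the 100 nM libraries (adjusted p = 0.0899). The host transcript of miR-143, MIR143HG, fell by 0.51 (SE 0.07, adjusted p = 9e-05), and that of miR-22, MIR22HG, rose by 0.55 (SE 0.09, adjusted p = 0.00083, and 0.239 without the 500 nM libraries). Among zinc finger genes ZNF618 fell by 0.35 (SE 0.03, adjusted p = 3.1e-06), and ZNF554 rose by 0.58 (SE 0.06).

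Some of the steepest risers belonged to none of the lists. RELN, the secreted neuronal guidance protein reelin, had 3.64, 4.44 and 0.773 CPM with 100 nM, 9.92, 13.9 and 1.8 with 150 nM, 16.9, 19.8 and 2.57 with 200 nM, and 20.2, 36.4 and 24.1 with 500 nM. Its slope was 1.37 (SE 0.21, adjusted p = 0.0012). NEB and RYR2, the muscle proteins nebulin and the cardiac calcium release channel, rose by 1.30 (SE 0.13) and 1.25 (SE 0.12), and IGFN1, of skeletal muscle, by 1.49 (SE 0.30). Without the 100 nM libraries the calls of RELN (adjusted p = 0.0586) and IGFN1 (0.11) were lost. ADTRP, a hydrolase, rose by 1.19 (SE 0.09). MYO5C, a vesicle motor of epithelial cells, had 20.3, 22.7 and 12.8 CPM at 500 nM against 3.12, 3.03 and 1.06 at 100 nM.

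LPAR6, a receptor for lysophosphatidic acid, differed from most in being steepest in replicate number 1. It had 125, 50 and 15.5 CPM at 500 nM against 6.37, 5.15 and 7.73 at 100 nM, for slopes of 1.69, 1.39 and 0.50. Its overall slope was 1.19 (SE 0.24, adjusted p = 0.0062), lost without replicate number 2 (adjusted p = 0.0802) or the 500 nM libraries (0.172). Transcripts AC003092.1 and CTD-2541M15.1, for which no function was annotated, rose by 1.41 and 1.37, and the call of AC003092.1 was lost without the 100 nM libraries (adjusted p = 0.0633).

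The steepest faller with a mean log2 CPM of at least 2 was FMO2, a flavin monooxygenase, with 19, 1.72 and 1.57 CPM at 500 nM against 23.9, 20.5 and 29.7 at 100 nM. Replicate number 1 barely changed, with slopes of -0.07, -1.44 and -1.75 (overall -1.08, SE 0.27, adjusted p = 0.016), and the call was lost without the 500 nM library of number 2 (adjusted p = 0.0619) or number 3 (0.0824). ADAMTS15, a secreted protease of matrix proteoglycans, fell by 0.87 (SE 0.14), UNC5B, a netrin receptor, by 0.75 (SE 0.14), and WISP1, a matricellular protein, by 0.73 (SE 0.10). Without the 100 nM libraries the calls of FMO2 (adjusted p = 0.17) and UNC5B (0.0974) were lost. SSBP2, a binder of single-stranded DNA, fell by 0.76 (SE 0.13). Transcript RP11-572C15.6, with no annotated function, fell evenly with slopes of -0.84, -0.89 and -1.13.

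More of the listed genes were detected at higher dose. With each library thinned to 7897060 reads, genes with at least 1 read numbered 21921, 22243 and 21497 with 100 nM, 22343, 22438 and 21992 with 150 nM, 22472, 22526 and 22153 with 200 nM, and 22476, 22569 and 22527 with 500 nM. Every number was higher at each step, and replicate number 3 was lowest up to 200 nM. The gain was 248 genes per doubling of dose (two-sided exact permutation test within replicate numbers, p = 0.00492, n = 12 libraries, smallest possible p 0.000145). Without replicate number 3 it was 165 genes (exact p = 0.0538). Only genes that the authors' filter kept for these libraries were counted. A gene kept only through the higher doses adds to the gain by its selection, and the permutation test does not allow for this.

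**Figure D5:**
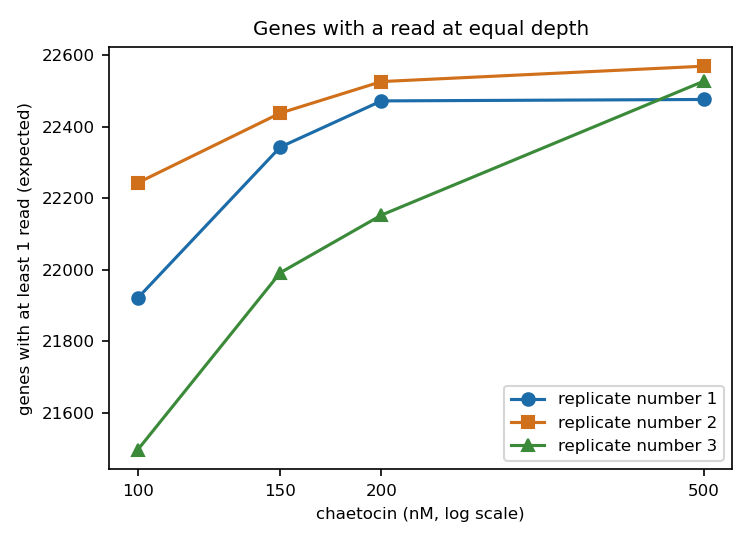
Expected number of genes with at least 1 read (y axis, not starting at 0) after thinning to 7897060 reads, against chaetocin dose in nM on a log scale (x axis), with one line per replicate number. The 500 nM libraries lie between 22476 and 22569, and the 100 nM libraries between 21497 and 22243.

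Markers of other cell types were counted apart from that gain. Of 12 germline genes measured 8 rose (66.7%) and 0 fell, and of 7 endothelial genes 4 (57.1%) and 0. Of 6 leukocyte genes 1 rose and 0 fell, of 12 neural genes 2 and 2, and of 8 adipocyte genes 0 and 0. Of all genes, 16.2% rose and 15.9% fell, and the leukocyte share of risers and both neural shares, each 16.7%, were near these. Among genes with a mean log2 CPM between -2 and 0, 19.4% rose and 1.38% fell. The lists named 30 germline, 11 endothelial and 14 leukocyte genes, and members entered the table through the authors' filter, so a member that passed only through the higher doses had to differ. Summed germline levels were 17.7 to 22.7 CPM at 500 nM against 4.64 to 12.1 CPM at 100 nM. Summed endothelial levels were 17.2 to 24.4 against 11.3 to 12.5 CPM, and leukocyte levels 8.71 to 24.4 against 6.24 to 13.4 CPM. Adipocyte levels summed to 28.8 to 76.1 against 32.8 to 85.1 CPM, and neural levels to 84.2 to 125 against 109 to 170 CPM. No measured member of these lists was at 0 in all 12 libraries. PIWIL2, a small RNA partner of germ cells, rose by 0.78 (SE 0.13, adjusted p = 0.0002) and ERG, an endothelial transcription factor, by 0.56 (SE 0.09, adjusted p = 0.00018). Without replicate number 2 the germline risers numbered 3 and the endothelial risers 1. The part of other cell types in these results was not tested.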

How the data were processed

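RNA of HMLE-TWIST1 cells was made into stranded total RNA libraries after depletion of ribosomal RNA, per the labels' protocols. Reads were aligned with STAR and counted with HTSeq on hg19/GRCh37, per the submitters' processing notes, without versions. Whether counting used strand is not given in the sources used here, so overlapping and antisense genes are uncertain. The deposited values are log2 RPKM, scaled by the authors with an offset before the logarithm. The authors filtered and scaled the table in separate parts, and the dose series lies in 1 part of 12 libraries. Another deposited table has 81 unnamed value columns that match no sample by name and were not used here.

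Whole reads were recovered from the steps of the log2 values for 100% of genes (tolerance 0.01 reads, mean offset 2.1 reads). With limma 3.58.1 (R 4.3.3, statmod 1.5.0), a model was fitted to the deposited log2 values of all 23098 genes. The model held replicate number and log2 dose, with a robust intensity trend, 8 residual degrees of freedom and Benjamini-Hochberg adjustment at 0.05. CPM are recovered reads over library totals with the authors' scaling. The script was tested on simulated data. Same-numbered libraries deviated together in all 18 pairs (r 0.195 to 0.706, median 0.4745), and 36 other pairs had r from -0.611 to 0.349. The numbers were used as a block, although the labels do not say that they link libraries across doses. The 2 ranges overlapped. The 500 nM library of number 3 had r 0.349 with the 100 nM library of number 2, and 0.195 with that of its own number.

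Named genes were 12 fixed genes, the 12 largest rises and 12 largest falls with a mean log2 CPM of at least 2 and the same sign in all 3 numbers, up to 4 members per list with the smallest adjusted p, and up to 5 genes that differed between numbers. The members and the lists were chosen with earlier results of these data known. Alternatives changed the block, scaling, offset, read filter (10 reads in at least 3 libraries and 15 in all), weights, dose scale and libraries. Some genes that the rule names are not reported here.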

Additional observations from a re-analysis of the deposited data

Results flagged for a closer look

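The trend differed between the replicate numbers for 681 genes (limma, adjusted p below 0.05), a difference between groups of libraries under the same dose contrast. The slope was largest in size in replicate number 3 for 582 of them, in number 1 for 68 and in number 2 for 31. DRAP1, a transcriptional corepressor subunit, had slopes of -0.01, 0.40 and 0.87 in numbers 1, 2 and 3. Its levels with 500 nM were 415, 414 and 444 CPM, against 431, 211 and 112 CPM with 100 nM, so the libraries were spread at the lowest dose and close together at the highest. AKAP12, a scaffold for protein kinase A, had slopes of -0.05, 0.46 and 0.57. PTGFR, a prostaglandin receptor, had 126, 60.2 and 61.8 CPM with 500 nM against 156, 180 and 310 CPM with 100 nM. CCDC102B had 0.19, -0.61 and -0.98, and IFI16, a sensor of DNA, 0.25, -0.06 and -0.37. The trend over all numbers did not pass for CCDC102B (adjusted p = 0.0732) and IFI16 (adjusted p = 0.64), both by limma. Without replicate number 3 the count was 4.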

How the results depend on the processing

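Without the replicate block, 1837 genes rose and 1478 fell with dose, 500 against 100 nM gave 1187 higher and 823 lower, and 500 against 200 nM gave 0 and 0. Without the block 44.6% of the trend calls were kept, without the 500 nM libraries 39.9% and without the 100 nM libraries 46.5%. Under each setting, 0 of the genes called in both fits had opposite directions. The list counts without the block were 8 risers of 21 for NF-kB cytokines, 6 fallers of 40 for mesenchymal genes and 1 faller of 59 for histones. Among genes named in the report, CDH1, VIM, FN1, ZEB1, AC003092.1, WISP1, FBN1, TNC, KRT14, CCNG1, TNFSF10, FOSL2, HIST1H2BH, IDI1, LDHA and DRAP1 lost their calls without the block.

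Without the 500 nM libraries the trend gave 1615 higher and 1954 lower, and without the 100 nM libraries 1882 and 1791. For 500 against 200 nM, an offset of 0.5 reads gave 16 higher and 3 lower, an offset of 5 reads 94 and 20, voom weights 153 and 40, and a fit without intensity trend or robustness 0 and 0.

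Leaving out a library or a replicate number gave 2154 to 3886 higher and 2029 to 3969 lower in the trend, and 1364 to 3049 and 1056 to 3231 for 500 against 100 nM. It gave 0 to 57 higher and 0 to 15 lower for 150 against 100 nM, 0 to 1 higher for 200 against 150 nM, and 0 to 182 higher and 0 to 369 lower for 500 against 200 nM. Departures from the line numbered 0 to 2, genes differing between numbers 4 to 1757 and the gain in detected genes 165 to 309 per doubling. The settings without the 100 nM library of replicate number 1 or 3 in the test between numbers, and all list counts, were added after seeing the data. Of the results for single genes, 3837 kept their side of the threshold, 221 lost their call, 19 gained one and 0 reversed. A change of sign without a call in either fit was not counted as reversed. The slope of IFI16, for one, ranged from -0.2153 to 0.09707 with libraries left out. The cause of these changes was not tested. Depth limits genes of a few reads, such as CDH1 and EPCAM.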

Other observations

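Cells given 80 nM chaetocin for less than 48 h and then 48 h of fresh medium share no library with the dose series. They were collected on a later day than day 2. Their levels were set beside DMSO libraries of that later day as a description, within the table part that holds both. These are not the day 2 DMSO libraries quoted above. Dose, hours of drug, recovery and day thus all differ from the dose series. Of the genes that rose with dose, 3187 were listed there, and 84.3% were higher after washout than in DMSO, against 53% of all genes listed in both. Of 3674 genes that fell with dose, 73.7% were lower after washout than in DMSO, against 46.4% of all genes. The median difference was 0.50 log2 units for the risers and -0.22 for the fallers.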
